A study of Homo sapiens with 6 samples.

Results

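The ID genes encode small nuclear helix-loop-helix proteins, and SMAD6, SMAD7, BAMBI and SKIL encode inhibitors that act back on the BMP and TGF-beta signals that induce them. The 10 genes ID1, ID2, ID3, ID4, SMAD3, SMAD4, SMAD6, SMAD7, BAMBI and SKIL were taken by symbol from the 60604 genes of the deposited count table, and all 10 were found. They were followed in MIA PaCa-2, a human pancreatic carcinoma line described as wild type. The cells received black phosphorus (BP), a layered form of the element, at 12.5 µg/ml, either alone or with Huaier, a fungal extract, at 10 mg/ml. Each treatment has 3 libraries. Both groups therefore carry BP, cells without it were not analysed here, and the comparison asks what the extract changed on top of BP. The labels give neither a treatment time nor separate cultures for the libraries of a group. The p-values therefore cover the spread among these libraries only, and that spread may be technical.

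BMPs and TGF-beta bind paired type I and type II receptors, which phosphorylate receptor-regulated SMADs. SMAD1, SMAD5 and SMAD9 carry the BMP signal, SMAD2 and SMAD3 carry the TGF-beta and activin signal, and SMAD4 joins either set on the way to the nucleus. ID1, ID2 and ID3 are classic direct targets of BMP-SMAD signalling. ID proteins lack a DNA-binding basic region and hold E proteins such as TCF3 and TCF12 off DNA, which opposes differentiation. SMAD6 and SMAD7 block receptors and receptor-regulated SMADs, BAMBI is a pseudoreceptor without a kinase, and SKIL (SnoN) is a SMAD corepressor. In pancreatic carcinoma SMAD4 is a tumour suppressor that is often lost.

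Adding Huaier lowered the ID2 and ID3 transcripts and raised SMAD3. ID2 was 2.49-fold lower, ID3 was 1.82-fold lower and SMAD3 was 1.48-fold higher. The ID2 call held in all 17 alternative fits and settings, whereas the ID3 call was lost in 5 and the SMAD3 call in 7. ID1, SMAD4, SMAD6, SMAD7, BAMBI and SKIL did not pass the test, and ID4 had no count in any library. With the quasi-likelihood test of edgeR and a threshold of 0.05 on the adjusted p, 2 of the 9 tested genes were called lower and 1 higher. The background over all 15022 tested genes was 15.0% lower and 14.4% higher, or 29.3% in either direction. Groups were fully separated for 4 genes in the lower and 1 in the higher direction, against 24.9% and 21.9% of all tested genes and 46.8% in either direction. These counts are near the background and are no result about the set as a whole. ID4 was left out by the filter on low counts, so the counts concern the 9 other genes.

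The libraries held between 15657593 and 17036565 counts. Values are CPM (counts scaled to a common library size) after TMM, which corrects library size for differences in composition, with factors of 1.08 to 1.11 for BP and 0.850, 0.857 and 1.04 for BP+Huaier 1, 2 and 3. The median log2 fold change over all tested genes was -0.02, and with library size alone as the scale it was -0.28. BP+Huaier 3 stood apart, at 11.5 on the first principal component (72.4% of the variance) against 65.1 and 66.0 for BP+Huaier 1 and 2 and -50.5 to -43.4 for BP. Ratios to the BP mean also followed transcript GC content to unequal degrees, with r across 14896 genes, which are not independent replicates, of -0.44 to 0.42 in BP libraries and 0.028 to 0.39 in BP+Huaier libraries. The cytokeratins KRT8, KRT18 and KRT19 and vimentin were abundant, whereas the cytokeratin KRT7, EPCAM and CDH1 lay at 0 to 0.27 CPM. Defining markers of acinar, endocrine and blood cells (PRSS1, INS, PTPRC) were at 0 in all libraries, PECAM1 reached at most 0.17 CPM, and DCN and LUM were at 0. KRT18 and KRT19 rose 1.71-fold and 2.05-fold (edgeR adjusted p = 0.037 and 0.017). Some markers of other cell types were present. COL1A1 rose from 1.34 ± 0.10 to 5.92 ± 0.65 CPM (SD, n = 3). COL1A2 measured 494 to 549 CPM in BP and 373 to 476 CPM in BP+Huaier, and CD14 40.8 to 45.5 CPM and 21.0 to 34.1 CPM. Neither was called by edgeR, where CD14 lay just above the threshold (adjusted p = 0.0507), and DESeq2 and limma-voom called CD14 lower. CDH5 fell, from 17.3 to 21.1 CPM in BP to 11.7 to 14.7 CPM in BP+Huaier. The part of these levels in the results was not tested. The 8 mitochondrial-genome transcripts listed were at 0 in all libraries and gave no measure of RNA quality.

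Promoter letters were read for the ID genes that differed in their response and for SMAD6, because SMAD complexes are known to act through short elements. The windows are the 250 bases upstream of the RefSeq start site (GRCh38.p14), written 5′ to 3′ on the strand of the gene. The printed letters stop before the gene's own exon bases in the deposited table, whereas the motif counts cover all 250 bases. SMAD3 has 5 RefSeq start sites and SMAD7 has 3, and only the site farthest upstream was read. Capitals mark the palindromic SMAD element GTCTAGAC, the single SMAD box GTCTG and the BMP-type GC element GGAGCC, and no marked matches overlap. Both strands were searched, so that the single box may also read CAGAC, and the GC element may likewise be written as GGCTCC. They come from chr20:31605039-31605282 (plus strand) for ID1, chr1:23559502-23559751 (minus strand) for ID3 and chr15:66701986-66702235 (plus strand) for SMAD6.
ID1: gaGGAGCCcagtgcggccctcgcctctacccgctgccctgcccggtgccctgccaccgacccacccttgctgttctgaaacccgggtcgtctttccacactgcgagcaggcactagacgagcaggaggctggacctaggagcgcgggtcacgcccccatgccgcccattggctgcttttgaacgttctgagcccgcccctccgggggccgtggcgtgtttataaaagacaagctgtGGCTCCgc
ID3: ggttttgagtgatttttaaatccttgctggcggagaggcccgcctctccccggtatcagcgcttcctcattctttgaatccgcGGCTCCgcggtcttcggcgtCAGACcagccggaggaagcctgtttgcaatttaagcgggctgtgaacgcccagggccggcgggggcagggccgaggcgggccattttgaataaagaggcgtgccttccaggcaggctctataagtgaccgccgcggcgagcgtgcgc
SMAD6: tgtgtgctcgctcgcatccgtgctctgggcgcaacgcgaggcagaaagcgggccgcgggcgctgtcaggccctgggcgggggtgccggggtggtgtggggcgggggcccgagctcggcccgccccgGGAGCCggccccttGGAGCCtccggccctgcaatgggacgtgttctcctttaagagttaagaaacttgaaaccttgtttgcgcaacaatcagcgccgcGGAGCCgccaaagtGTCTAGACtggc
SMAD6 holds the GTCTAGAC palindrome 12 bases before its start site, a motif found in 0.182% of 35116 promoter windows of 250 bases. GGAGCC stands in 7 of the 10 windows, 4 times in BAMBI, 3 times in SMAD6 and in SKIL, 2 times in ID1 and in ID4, and 1 time in ID3 and in SMAD3, where 30.6% of windows hold at least 1 copy. The GC content of the 10 windows ran from 48.0% in SMAD7 to 81.2% in BAMBI, with 80.8% in SMAD3, 78.8% in ID4 and 78.4% in SKIL. The shares over all windows were not matched for GC content, so they do not show an excess of any motif. ID3, ID4 and SKIL each have 1 GTCTG box and SMAD7 and BAMBI 2 each, and 38.0% of windows have one. Further searched letters were GGCGCC, in 16.4% of windows, and the cyclic AMP element TGACGTCA, in 1.65%. BAMBI held GGCGCC 3 times, SMAD3 2 times, and SMAD4 and SKIL 1 time each, and SKIL was the only one of the 10 with TGACGTCA. None of the searched letters lay in the 250 bases before the ID2 start site. That window reached a deposited exon of ID2 itself after 48 bases, so most of it is exon sequence in the count table or follows such sequence. The windows of SMAD4, SKIL, BAMBI and ID1 reached their own exons after 137, 213, 239 and 244 bases. These matches are letters in a window and not measured sites, and the known BMP-responsive enhancer of ID1 lies farther upstream than the window reaches.

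**Figure D1:**
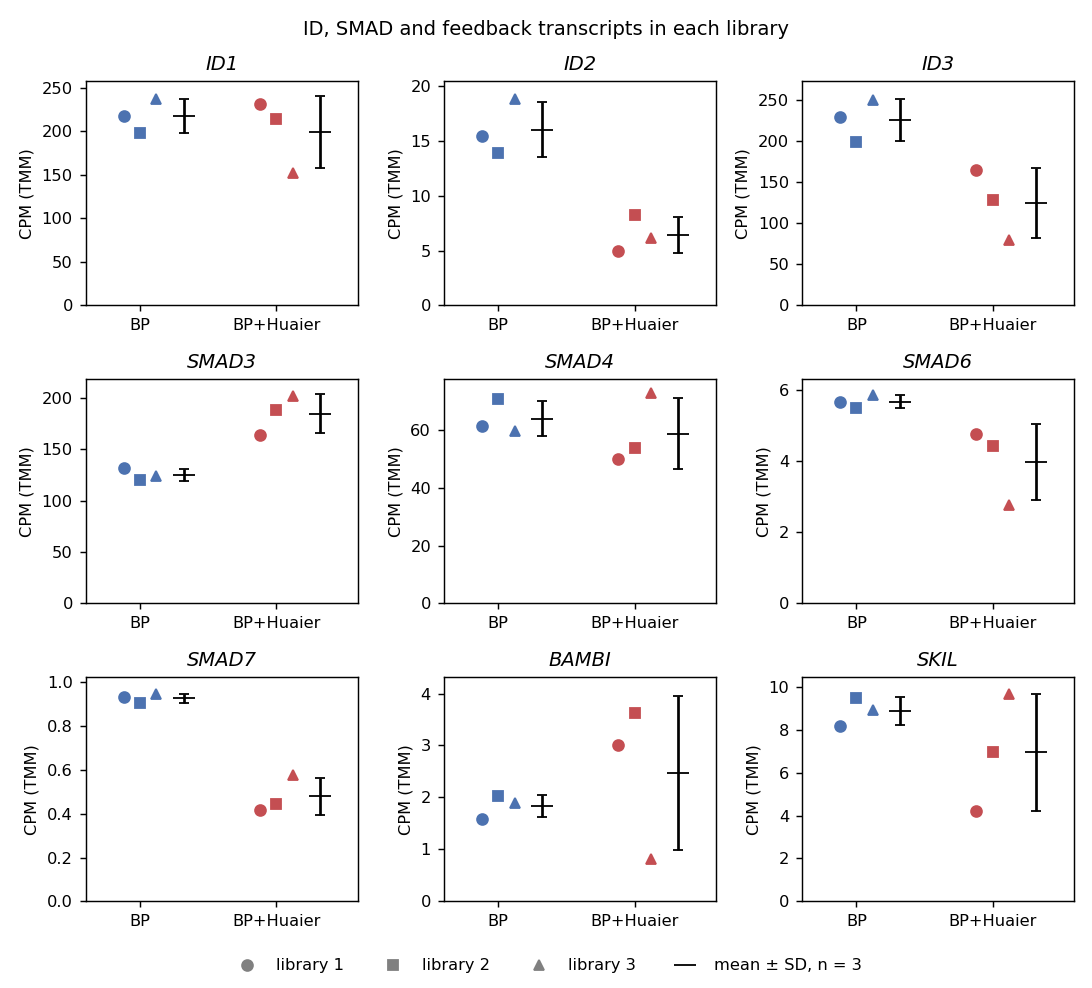
Each panel plots 1 gene, with TMM-scaled CPM on a linear y axis from 0, treatment on the x axis, a symbol for each library and a bar for mean ± SD (n = 3). ID2, ID3, SMAD6 and SMAD7 have all 3 BP+Huaier points under all 3 BP points, SMAD3 has them above, and ID1, SMAD4, BAMBI and SKIL overlap.

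ID2 showed the largest change of the 9 tested genes. ID2 (ENSG00000115738.10, GRCh38 chromosome 2, 8678845 to 8684461) is an ID family member that also binds proteins of the retinoblastoma family. ID2 measured 15.4, 13.9 and 18.8 CPM in BP 1, 2 and 3 and 4.96, 8.20 and 6.17 CPM in BP+Huaier 1, 2 and 3. The groups did not overlap, and the highest BP+Huaier library lay well under the lowest BP library. The means were 16.0 ± 2.50 and 6.44 ± 1.64 CPM (SD, n = 3), which is -1.32 ± 0.22 (SE) on the log2 scale with an edgeR adjusted p of 0.0041. ID2 was called lower in each of 17 alternatives, with log2 fold changes from -1.58 to -1.15. The antisense gene ID2-AS1 shares 145 exon bases with ID2 and had between 0 and 13 counts a library, against 71 to 318 for ID2, and the sources used here do not give the strand setting of the counting. In bulk RNA, fewer cells with a transcript and less of it per cell cannot be told apart.

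ID3 (ENSG00000117318.9, chromosome 1, 23557926 to 23559501) is an ID family member also known from lymphocyte development. ID3 measured 229, 199 and 250 CPM in BP 1, 2 and 3. With Huaier it measured 165, 128 and 80.2 CPM in BP+Huaier 1, 2 and 3. All BP+Huaier libraries lay under all BP libraries, and BP+Huaier 3 was the lowest. The means were 226 ± 25.8 and 124 ± 42.7 CPM (SD, n = 3), which is -0.86 ± 0.24 (SE) on the log2 scale with an edgeR adjusted p of 0.028. The call did not hold without BP 1, BP 2, BP 3 or BP+Huaier 2, where the edgeR adjusted p was 0.087, 0.071, 0.12 and 0.098. The size of the fall ranged from -1.16 to -0.61 on the log2 scale over 17 alternatives, the smallest without BP+Huaier 3.

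ID1 (ENSG00000125968.9, chromosome 20, 31605283 to 31606515), the founding member of the family, did not pass the test. ID1 measured 218, 198 and 238 CPM in BP 1, 2 and 3. The BP+Huaier libraries measured 232, 214 and 153 CPM. BP+Huaier 1 and 2 lay inside the BP range and BP+Huaier 3 below it. On the log2 scale ID1 differed by -0.13 ± 0.18 with an edgeR adjusted p of 0.61, and by 0.046 without BP+Huaier 3. In TPM, which scales each library by its own sum per exon length, ID1 measured 703 to 806 in BP and 508 to 570.5 in BP+Huaier, without overlap. ID1 was called lower with scaling by library size alone (-0.41, edgeR adjusted p = 0.041) and after removal of the GC and length trend (-0.29, 0.034), so whether its level differed depends on those choices.

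ID4 (ENSG00000172201.12, chromosome 6, 19837370 to 19842197) had 0 counts in all 6 libraries. A count of 0 allows up to 3 counts, or 0.160 to 0.222 CPM in these libraries, a limit for counting error only.

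The balance between ID transcripts within a library does not depend on how libraries are scaled. Per exon length, the ratio of ID3 to ID1 was 0.869, 0.828 and 0.866 in BP 1, 2 and 3 and 0.587, 0.492 and 0.432 in BP+Huaier 1, 2 and 3. The BP libraries were close to one another and all BP+Huaier libraries lay below them, with means of 0.854 ± 0.023 and 0.504 ± 0.078 (SD, n = 3; two-sided exact permutation p = 0.10, the smallest that 3 against 3 libraries allow). The ratio of ID2 to ID1 was likewise below the BP values in all BP+Huaier libraries, with means of 0.041 ± 0.0027 and 0.019 ± 0.0058 and the same exact permutation p of 0.10. These ratios were chosen after the values were seen, and 4 were computed, so neither passes a threshold. The summed level of ID1, ID2 and ID3 was 462, 410 and 507 CPM in BP and 402, 351 and 239 CPM in BP+Huaier 1, 2 and 3.

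**Figure D2:**
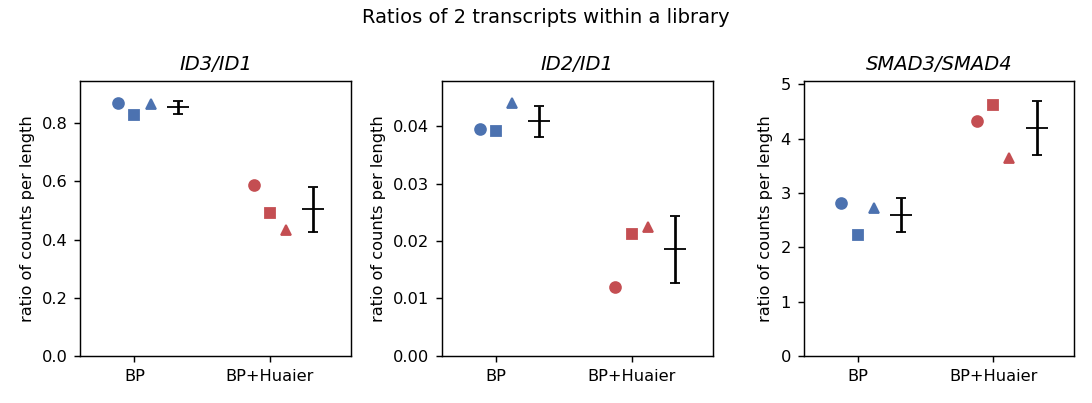
Each panel plots the ratio of 2 transcripts, in counts per exon length within the same library, on a linear y axis from 0 with treatment on the x axis, symbols for libraries 1 (circle), 2 (square) and 3 (triangle), and bars for mean ± SD (n = 3). ID3/ID1 and ID2/ID1 lie lower and SMAD3/SMAD4 higher in all 3 BP+Huaier libraries, each with an exact permutation p of 0.10.

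SMAD3 (ENSG00000166949.17, chromosome 15, 67063763 to 67195173), the TGF-beta effector that binds DNA directly, rose. SMAD3 measured 132, 120 and 124 CPM in BP 1, 2 and 3 and 164, 189 and 202 CPM in BP+Huaier 1, 2 and 3. The BP libraries differed little and all BP+Huaier libraries lay above them. The means were 125 ± 5.87 and 185 ± 18.9 CPM (SD, n = 3), which is 0.56 ± 0.14 (SE) on the log2 scale with an edgeR adjusted p of 0.015. The call did not hold without BP 1, BP 2, BP 3 or BP+Huaier 2 (edgeR adjusted p = 0.068, 0.083, 0.0652 and 0.061) or with scaling by library size alone (log2 fold change 0.31, 0.17). In TPM SMAD3 measured 51.8 to 56.9 in BP and 49.9, 58.4 and 82.8 in BP+Huaier 1, 2 and 3, and the groups overlapped.

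SMAD4 (ENSG00000141646.14, chromosome 18, 51028394 to 51085045), the partner common to both branches, was detected in every library but not called. SMAD4 measured 61.4, 70.7 and 59.7 CPM in BP and 49.95, 53.6 and 72.6 CPM in BP+Huaier 1, 2 and 3. BP+Huaier 1 and 2 lay under the BP range and BP+Huaier 3 above it. SMAD4 differed by -0.12 ± 0.17 on the log2 scale with an edgeR adjusted p of 0.61. Without BP+Huaier 3 it was -0.29 and was called lower (0.037), whereas with the GC and length trend removed it was 0.21 and not called (0.0768), so its direction is not settled. The SMAD4 transcript has a GC content of 41.1%, against 50.4% for SMAD3. The ratio of SMAD3 to SMAD4 per exon length was 2.82, 2.23 and 2.72 in BP and 4.33, 4.62 and 3.65 in BP+Huaier 1, 2 and 3. All BP+Huaier ratios lay above all BP ratios (means 2.59 ± 0.313 and 4.20 ± 0.498, two-sided exact permutation p = 0.10, the smallest possible). This ratio too was chosen after the values were seen, so its separation adds no evidence to the SMAD3 call. The ratio leaves the GC and length trend in. With that trend removed, SMAD3 was 0.61 and SMAD4 0.21 on the log2 scale, against 0.56 and -0.12.

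None of the 4 feedback inhibitors was called by the main edgeR fit, DESeq2 or limma-voom, and 1 of them, SMAD7, had an unadjusted edgeR p under 0.05 (0.032). SMAD6 (ENSG00000137834.15, chromosome 15, 66702236 to 66782849) favours inhibition of BMP receptors. SMAD6 measured 5.66, 5.48 and 5.85 CPM in BP and 4.75, 4.43 and 2.77 CPM in BP+Huaier 1, 2 and 3. The groups did not overlap, the BP libraries were nearly equal, and BP+Huaier 3 was the lowest. SMAD6 differed by -0.51 ± 0.24 on the log2 scale with an edgeR adjusted p of 0.13. It passed the threshold under scaling by library size alone (-0.80, 0.029) and with the GC and length trend removed (-0.725, edgeR adjusted p = 0.0195). With that trend removed and a replicate block, SMAD6 passed as well (-0.737, edgeR adjusted p = 0.030).

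SMAD7 (ENSG00000101665.10, chromosome 18, 48919853 to 48950965) inhibits both branches by recruiting ubiquitin ligases to type I receptors. It had 17, 17 and 16 counts in BP 1, 2 and 3 and 6, 6 and 10 counts in BP+Huaier 1, 2 and 3. Those counts equal 0.934, 0.905 and 0.945 CPM and then 0.419, 0.443 and 0.576 CPM. The groups did not overlap, but so few reads leave the size of the difference imprecise. SMAD7 differed by -0.93 ± 0.37 on the log2 scale with an edgeR adjusted p of 0.084, and it was called lower with the GC and length trend removed (-1.2, 0.039). The ratio of SMAD6 to SMAD7 gave an exact permutation p of 0.40.

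BAMBI (ENSG00000095739.11, chromosome 10, 28677510 to 28682932) differed among the BP+Huaier libraries. BAMBI measured 1.59, 2.02 and 1.89 CPM in BP and 3.00, 3.62 and 0.807 CPM in BP+Huaier 1, 2 and 3. BP+Huaier 1 and 2 lay above all BP libraries and BP+Huaier 3 below all of them. BAMBI differed by 0.41 ± 0.47 on the log2 scale with an edgeR adjusted p of 0.53, it was 0.86 and called higher without BP+Huaier 3 (0.012), and it was 0.039 without BP+Huaier 2 (0.97).

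SKIL (ENSG00000136603.14, chromosome 3, 170357678 to 170396835) also overlapped between the groups. SKIL measured 8.18, 9.47 and 8.92 CPM in BP and 4.19, 6.95 and 9.68 CPM in BP+Huaier 1, 2 and 3. BP+Huaier 1 and 2 lay below the BP range and BP+Huaier 3 above it. SKIL differed by -0.34 ± 0.28 on the log2 scale with an edgeR adjusted p of 0.36, and it was -0.66 and called lower without BP+Huaier 3 (0.014). SKIL has the lowest transcript GC content of the 10 genes, at 33.4%.

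**Figure D3:**
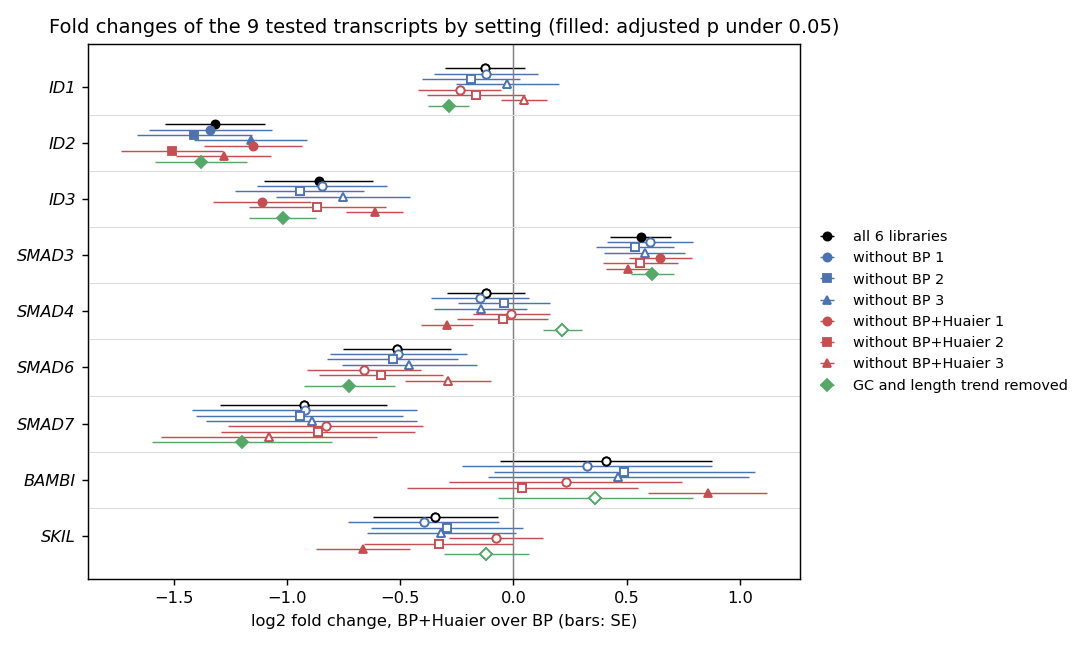
The x axis is the log2 fold change of BP+Huaier over BP with SE bars, the y axis lists the 9 tested genes, and colours and symbols mark the fit on all libraries, the fits without 1 library and the fit with the GC and length trend removed, filled where the adjusted p is under 0.05. ID2 is filled in every fit drawn, ID3 and SMAD3 keep their side of 0 but not always the threshold, and ID1 and SMAD4 cross 0.

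Levels per exon length (CPM per kilobase) ordered the 10 genes over a wide range. In BP the order was ID1 (177 ± 16.2, SD, n = 3), ID3 (151 ± 17.3), SMAD3 (12.5 ± 0.59), ID2 (7.25 ± 1.13), SMAD4 (4.87 ± 0.45), SKIL (1.14 ± 0.083), BAMBI (0.858 ± 0.10), SMAD6 (0.662 ± 0.021), SMAD7 (0.235 ± 0.0053) and ID4 at 0. The ranges of ID1 and ID3 overlapped in BP, and those of every other neighbouring pair did not. With Huaier, ID1 measured 162 ± 33.7 and ID3 83.2 ± 28.5 CPM per kilobase, and their ranges no longer overlapped. SMAD4 (4.48 ± 0.93) then stood above ID2 (2.91 ± 0.74), also without overlap. BAMBI (1.16 ± 0.69), SKIL (0.892 ± 0.35) and SMAD6 (0.466 ± 0.12) overlapped in BP+Huaier. SMAD7 remained the lowest of the detected genes, at 0.121 ± 0.021.

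The genes most like ID1 across the 6 libraries, by Pearson correlation of log2 CPM among 9801 protein-coding genes of at least 5 CPM, were JMJD8 (r = 0.99), COL17A1 (0.987), GALNS (0.985), PMVK (0.984) and NAGLU (0.983). None of these 5 was called by edgeR, and 1.58% of the genes considered had r of at least 0.9. For SMAD7 they were USP40 (r = 0.999), GSAP, CDC42EP3, ZFP62 (each 0.998) and THBS3 (0.997), all of them called lower, and 11.3% of genes had r of at least 0.9. The points share libraries, group and depth, and these values only describe the ranking.

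Upstream of the SMADs, ligand transcripts changed in both directions. Of 28 ligand genes 12 were tested, of which 4 rose and 2 fell, with a median log2 fold change of 0.26 against -0.02 for all tested genes. Over all tested genes 14.4% were called higher and 15% lower. These shares are the background for the counts of this and each later list, and no list was tested as a set. TGFB1, the most widely expressed TGF-beta, rose from 52.4 ± 4.90 to 125 ± 35.2 CPM (SD, n = 3; edgeR adjusted p = 0.0043), and BMP7 from 43.3 ± 3.86 to 73.4 ± 20.2 CPM (edgeR adjusted p = 0.027). BMP6 and INHBB, an activin subunit, also rose, from 1.14 ± 0.23 to 4.54 ± 0.67 CPM and from 1.20 ± 0.022 to 3.04 ± 0.087 CPM. BMP3 and BMP8A fell, at 4.67 CPM or less in any library, and BMP2 and BMP4 had at most 0.07 CPM. Without BP 1 or BP 2, 0 ligands were called lower by edgeR, 1 without BP+Huaier 2 and 4 without BP+Huaier 3. The BMP7 call held only without BP+Huaier 3 among the fits that left out a library. With all libraries 3 ligands were lower at an unadjusted p under 0.05, and DESeq2 and limma-voom called 2 and 2. With at least 5 CPM required, 2 ligands were called higher and 0 lower.

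Of 18 receptors and co-receptors 12 were tested, with 1 higher, 1 lower and a median log2 fold change of 0.05. Among all tested genes 14.4% were higher and 15% lower, so these counts are no result about receptors as a set. BMPR1A, a type I BMP receptor, fell from 46.3 ± 4.31 to 30.3 ± 4.91 CPM (edgeR adjusted p = 0.021), and RGMA, a BMP co-receptor, rose from 3.55 ± 0.79 to 8.89 ± 2.58 CPM (edgeR adjusted p = 0.0095). The type II receptor BMPR2, at 41.1 ± 4.38 and 28.4 ± 6.59 CPM, was not called (edgeR adjusted p = 0.061). DESeq2 and limma-voom with a spread for each group called BMPR2 lower (adjusted p = 0.044 and 0.046). So did edgeR with all genes kept (0.043) and without BP+Huaier 3 (5.07e-04). With the GC and length trend removed, its log2 fold change was -0.17 against -0.53 (edgeR adjusted p = 0.20). ACVR1 and TGFBR1 did not pass (edgeR adjusted p = 0.12 and 0.48), but with the GC and length trend removed ACVR1 was called higher (log2 fold change 0.57 against 0.38, edgeR adjusted p = 0.0095). That fit called 3 receptors higher and 2 lower. In it BMPR1A was still called lower, at a log2 fold change of -0.34 against -0.61 (edgeR adjusted p = 0.024). With a replicate block as well, BMPR1A was not called (edgeR adjusted p = 0.051). TGFBR2, the type II receptor of TGF-beta, had 0, 6 and 3 counts in BP and 4, 0 and 1 in BP+Huaier, under the filter. The BMPR1A call did not hold without BP 1, 2 or 3 or BP+Huaier 2 (edgeR adjusted p from 0.058 to 0.10), nor that of RGMA without BP 2 (0.054). Without BP+Huaier 3, 3 receptors rose and 3 fell.

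Among secreted antagonists and latency proteins, 13 of 23 were tested, with a median log2 fold change of 0.25. FSTL3, which binds activins, rose from 26.6 ± 2.64 to 44.3 ± 9.62 CPM, and NBL1, a BMP antagonist, from 104 ± 18.7 to 185 ± 69.8 CPM with overlapping ranges. The NBL1 call was lost in 12 of 17 alternatives, and with the GC and length trend removed its log2 fold change was 0.36 against 0.83 (edgeR adjusted p = 0.070). In that fit FSTL3 was 0.32 against 0.74 and still called (edgeR adjusted p = 0.021). With a replicate block as well, FSTL3 was not called (edgeR adjusted p = 0.055). CRIM1, a membrane protein that binds BMPs, fell from 132 ± 3.48 to 93.9 ± 7.15 CPM. NOG, encoding noggin, was not called, with an edgeR adjusted p of 0.31. None of the 3 was called by edgeR once any 1 BP library, or BP+Huaier 2, was left out. Leaving out BP+Huaier 3 gave 6 rises and 2 falls.

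The other receptor-regulated SMADs did not pass the test. SMAD1 measured 11.1 ± 2.02 and 8.46 ± 0.82 CPM (edgeR adjusted p = 0.14), SMAD5 85.1 ± 6.81 and 69.1 ± 29 CPM (0.40) and SMAD9 5.30 ± 0.15 and 2.95 ± 1.57 CPM (0.090). SMAD2 measured 75.4 ± 3.92 and 71.0 ± 10.1 CPM (0.67), and with the GC and length trend removed it was called higher (log2 fold change 0.58, edgeR adjusted p = 0.0071). Their anchors ZFYVE9 (SARA) and ZFYVE16 fell, from 36.1 ± 2.81 to 22.3 ± 6.49 CPM and from 39.9 ± 3.05 to 22.5 ± 9.50 CPM. TRIM33, a ubiquitin ligase that binds SMADs, fell from 58.3 ± 6.71 to 30.9 ± 15.2 CPM. With the GC and length trend removed, ZFYVE16, TRIM33 and ZFYVE9 were still called lower. Their log2 fold changes were then -0.44 against -0.82, -0.66 against -0.91 and -0.58 against -0.69. These 3 falls among the 7 genes of the list, with a median log2 fold change of -0.69, were not called without BP 1, BP 2, BP 3, BP+Huaier 1 or BP+Huaier 2. Without BP+Huaier 3, 5 genes of the list were called lower. SMAD5 (-0.68, edgeR adjusted p = 3.22e-04) and SMAD9 (-1.36, 2.13e-04) were among them. With the GC and length trend left in, no gene of the list was higher by edgeR, limma-voom or DESeq2. In the main edgeR fit 0 had an unadjusted p under 0.05 in that direction.

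Of 23 further regulators of SMAD activity, most of them inhibitors, 20 were tested, 7 rose and 1 fell, with a median log2 fold change of 0.39. PPP1R15A, which can direct a phosphatase to the TGF-beta receptor and is better known as a stress gene, rose 4.88-fold, from 47.7 ± 2.91 to 233 ± 134 CPM (SD, n = 3; edgeR adjusted p = 0.0030). PMEPA1, a TGF-beta-induced inhibitor of receptor SMADs, rose 2.54-fold, from 10.2 ± 1.21 to 26.0 ± 5.17 CPM. The corepressor TGIF1 rose 2.00-fold, from 54.8 ± 0.93 to 110 ± 6.96 CPM, and the antiproliferative protein TOB2 rose 1.78-fold. SMURF1, NEDD4L and TOB1 rose as well, and the ubiquitin ligase SMURF2 fell, from 91.5 ± 4.34 to 57.3 ± 20.2 CPM (edgeR adjusted p = 0.049). SKI, the paralog of SKIL, measured 116 ± 4.48 and 150 ± 15.5 CPM and did not pass (edgeR adjusted p = 0.062). Rises numbered 4, 4 and 4 without BP 1, 2 and 3, 4 without BP+Huaier 2 and 12 without BP+Huaier 3. Falls numbered 0 without each library other than BP+Huaier 3, and 4 without BP+Huaier 3.

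Downstream, lists of other genes known as BMP or TGF-beta targets held more rises than falls, unlike ID2 and ID3. Of 26 TGF-beta targets 20 were tested, 11 rose, 1 fell and 8 did not pass, with a median log2 fold change of 0.83. SNAI1, a repressor of epithelial genes, rose 6.55-fold and CDKN1A, a cell cycle inhibitor, rose 6.44-fold, from 6.41 ± 0.98 to 42.0 ± 18.0 CPM and from 3.24 ± 0.25 to 20.9 ± 7.73 CPM (SD, n = 3; edgeR adjusted p = 0.0011 and 8.87e-04). JUNB, an AP-1 subunit, rose 4.15-fold, PDGFB, a growth factor, rose 4.08-fold, and FN1, fibronectin, fell 4.38-fold, from 2.67 ± 0.58 to 0.615 ± 0.37 CPM. CCN2 measured 1.62 ± 0.43 and 1.66 ± 0.42 CPM and did not pass (edgeR adjusted p = 0.96). Many genes of this list, such as SNAI1, JUNB, CDKN1A and CCN1, are also induced by mitogens and stress. Rises numbered 10 to 14 when single libraries were left out, and falls numbered 3 without BP+Huaier 3 and 1 without any other library.

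Of 18 other BMP targets 11 were tested and 6 rose, with a median log2 fold change of 0.82. The homeobox genes MSX1 and MSX2 rose from 8.71 ± 1.35 to 20.7 ± 6.85 CPM and from 4.18 ± 0.39 to 8.28 ± 3.30 CPM. HES1, a repressor better known as a Notch target, rose 3.48-fold, the cofactor FHL2 rose 2.66-fold and GATA2 rose 1.68-fold, and SNAI1 stood on this list too. No BMP target was lower by the main edgeR fit, DESeq2 or limma-voom with a shared spread. SMAD9 had an unadjusted edgeR p under 0.05 and was called lower by limma-voom with a spread for each group. Alternative edgeR fits also called SMAD9 lower with all genes kept (adjusted p = 0.0234) and without BP+Huaier 3 (2.13e-04). So did the fit with the GC and length trend removed and a replicate block (0.0448). Rises numbered 3 without BP 2 and between 4 and 7 without any other library.

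Among 26 partners of ID proteins, 13 were tested and 4 rose, against 14.4% higher among all tested genes, with a median log2 fold change of 0.04. TCF3 (E2A), the E protein that ID proteins sequester, rose 1.73-fold, from 304 ± 19.1 to 525 ± 103 CPM (SD, n = 3; edgeR adjusted p = 0.011). TCF12, a second E protein, measured 41.4 ± 4.6 and 38.0 ± 12.7 CPM and did not pass (edgeR adjusted p = 0.71), and TCF4 had 0 counts in all libraries. ELK1, an ETS factor that ID proteins can bind, rose 2.18-fold, and the helix-loop-helix repressors HES1 and BHLHE40 rose 3.48-fold and 1.59-fold. No partner was lower by the main edgeR fit, DESeq2 or limma-voom, and 1, RB1, had an unadjusted edgeR p under 0.05 in that direction. With the GC and length trend removed, edgeR called 1 partner lower. Rises numbered 2 and 2 without BP 1 and BP 2, and 4 partners were lower without BP+Huaier 3. The TCF3 call did not hold without BP 1 or BP 2 (edgeR adjusted p = 0.058 and 0.066).

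**Figure D4:**
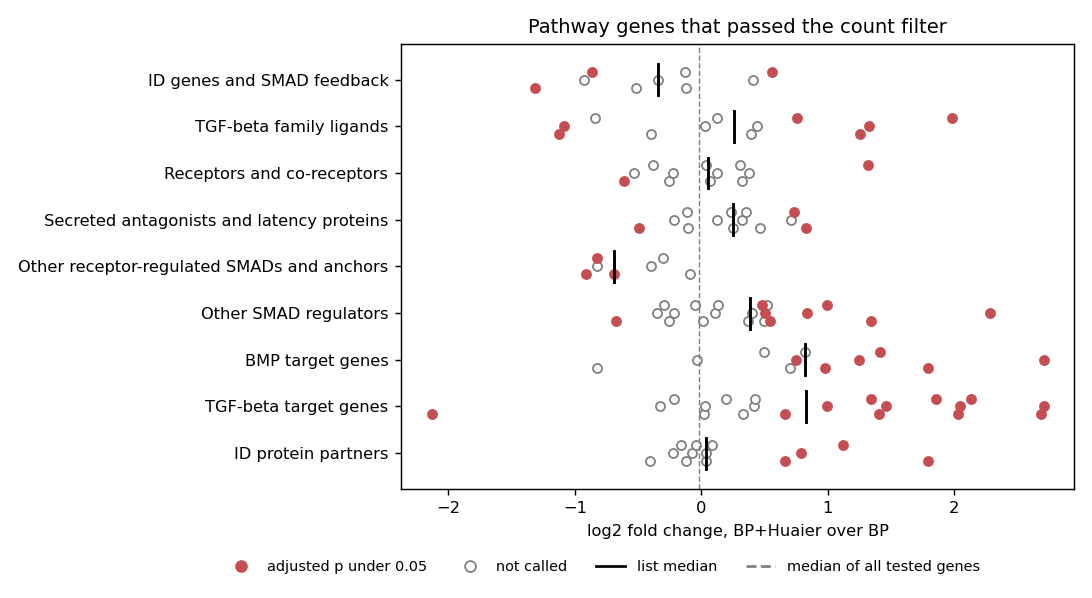
The x axis is the log2 fold change of BP+Huaier over BP, and each point is a gene of the list on the y axis that passed the count filter, filled where the adjusted p is under 0.05, with the list median as a vertical bar and the median of all tested genes (-0.02) dashed. The median of the ID and SMAD feedback genes is -0.34, that of the BMP targets 0.82 and that of the TGF-beta targets 0.83, and some genes stand on 2 lists.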

How the data were processed

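The 6 libraries were mapped to groups by their titles and to columns by treatment and number. Per the submitters' processing notes, fastp 0.20.0, HISAT2 2.1.0, featureCounts 1.6.1 and the build GRCh38 were used, and the NEBNext Ultra library kit is named per the labels' protocols. The deposited values are raw counts per gene, together with the exon length of each gene in bases, and the sources used here name neither the annotation release nor how strand, multi-mapped reads and overlaps were handled. Of 60651 lines, 3 that held 1 broken gene and 44 second copies of pseudoautosomal genes with 0 counts were left out. Symbols were matched for 99.77% of 60604 genes, and GENCODE 29 gave biotypes and, from each gene's longest transcript, GC content.

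Counts were filtered with filterByExpr, scaled by TMM and compared by the robust quasi-likelihood test of edgeR 4.0.16 in R 4.3.3, with group as the only term and Benjamini-Hochberg adjustment over 15022 genes. The floor of detection was set at 3 counts. Alternatives were DESeq2 size factors, library size alone, DESeq2 1.42.0, limma-voom (limma 3.58.1) with shared or group-wise spread, all genes kept, a minimum of 5 CPM, spline removal of GC and length trends, a block for the replicate number, fits without each single library and a threshold of 0.01 on the adjusted p. TPM was an alternative for levels per length. The steps were tested on simulated counts. Every gene of the set was named, and from each pathway list up to 4 called genes above 5 CPM ranked by size of change, besides core genes fixed by name (SMAD1, SMAD2, SMAD5, SMAD9, BMPR2, BMPR1A, ACVR1, TGFBR1, TGFBR2, SKI, CCN2, TCF3, TCF4 and TCF12). A further core gene is not reported here. Other named genes were chosen after their values were seen. The genes and lists were chosen with earlier results of these data known, and the pathway lists leave out genes on chromosome 8. Figures were drawn with matplotlib 3.10.9.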

Additional observations from a re-analysis of the deposited data

How the results depend on the processing

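Over all tested genes, higher and lower calls numbered 2160 and 2246, with 1051 higher under library size alone, 1357 lower with at least 5 CPM, and 826 and 810 at an adjusted p under 0.01. Leaving out single libraries gave 810 to 4452 higher and 909 to 4793 lower. Of the 9 tested ID, SMAD and feedback genes, 1 higher and 2 lower became 0 and 4 under library size alone and 0 and 1 at an adjusted p under 0.01. The lower calls were 5 with the GC and length trend removed. Leaving out single libraries gave 0 to 2 higher and 1 to 4 lower. Where no gene was higher, SMAD3 kept an unadjusted p of 0.0023 to 0.015 except under library size alone (0.083). Deviations of same-numbered libraries from their group means correlated at 0.0085, -0.056 and -0.28, and those of unlike-numbered libraries at -0.26 to 0.26. With so few libraries a group, whose deviations are not independent, these values cannot show whether the numbers mark shared cultures. With the replicate number as a block, 1357 genes were higher over all, 0 of the set were higher (SMAD3 log2 fold change 0.56, edgeR adjusted p = 0.058, unadjusted 0.013) and 2 lower. Log2 fold changes crossed 0 for ID1 (-0.24 to 0.046 without single libraries, above 0 without BP+Huaier 3), for SMAD4 (0.21 with the GC and length trend removed, 0.22 with the replicate block as well), for SMAD2 (0.58 and 0.57 in those fits, called with edgeR adjusted p = 0.0071 and 0.0068, and -0.20 to 0.0026 without single libraries), for TCF12 (0.13 and 0.12, and -0.41 to 0.060) and for CCN2 (-0.0248 and -0.00263, -0.25 under library size alone, and -0.17 to 0.21). The cause was not tested. The order of the 10 genes by level per length was the same in TPM. Depth limits SMAD7 and BAMBI, at 6 to 49 counts a library, and ID4 and TGFBR2, which were under the filter.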
